A study of Triticum aestivum with 4 samples.

Results

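The transcripts described here encode fructan 6-exohydrolase (6-FEH), an enzyme of fructan breakdown, and sucrose synthase, an enzyme of sucrose cleavage, in young wheat seed. They were read by 6 of the 61290 probe sets of an Affymetrix wheat array. The platform annotation gave 3 probe sets the gene LOC780575, whose synonym is 6-FEH, and 3 wheat control probe sets carry Sucsyn, for sucrose synthase, in their ID. A search for further unnamed probe sets of the same Ta-numbered transcript clusters found 0. The probe sets were picked by names and IDs rather than signal, and the group itself was chosen with earlier results of these data known.

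Seed of bread wheat, Triticum aestivum, was collected 5 days after anthesis from the field-grown parents of a mapping population, RL4452 and AC Domain. Each genotype had 2 biological replicates with 1 array each, made from poly(A)-enriched RNA. The comparison is between the probe set signals of these parents. A difference in transcript level and a sequence difference under the probes cannot be told apart in these signals. The seed was taken whole, so that fewer cells of a type and less RNA per cell cannot be told apart, and each genotype is a single line. Neither genotype is a control for the other, and differences are given as RL4452 minus AC Domain.

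Fructans are soluble polymers of fructose built onto sucrose, and temperate cereals hold them in vacuoles of the stem, the leaf base and the young grain. Fructosyltransferases build the chains, and fructan exohydrolases release fructose from their ends. 6-FEH acts mainly on levan-type linkages and 1-FEH on inulin-type linkages, and these enzymes are related in sequence to cell wall invertases. Sucrose synthase splits sucrose with UDP into fructose and UDP-glucose, which feeds starch, cell wall and respiratory metabolism in the growing grain.

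The probe sets read as follows. For 6-FEH they were Ta.9641.1.A1_a_at, TaAffx.93410.1.S1_at and Ta.30950.1.A1_x_at, each from a cluster of its own. In Affymetrix naming the suffix _a marks probes shared by transcripts of one gene, and the suffix _x marks a probe set with some probes that also match other sequences. For sucrose synthase the probe sets lay at the 3' end, in the middle and at the 5' end of the transcript (AFFX-Ta_Sucsyn_3_at, AFFX-Ta_Sucsyn_M_at and AFFX-Ta_Sucsyn_5_at). Bread wheat carries A, B and D subgenomes, and which of these copies each probe set reads was not analysed here. Signal at or under an intensity of 22.3 (4.48 on the log2 scale) is called background here, which is the 95th percentile of the 23 negative controls over the arrays.

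The RL4452 replicate 2 array stood apart in its run record, in which the wash was marked as aborted and 0 wash settings were listed, against 16 on each other array. The replicate 1 arrays of both genotypes shared one project name in the run files, and the replicate 2 arrays another. Median intensity was 33.8 and 33.4 on the RL4452 arrays and 32.5 and 32.0 on the AC Domain arrays.

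All 3 probe sets for 6-FEH had a higher mean signal in RL4452, and all 3 for sucrose synthase a lower one; over all probe sets 58.4% had a higher mean in RL4452. Of the 6 probe sets, 0 passed an adjusted p of 0.05 in limma over the 61140 probe sets in the fit, where 0.800% passed. At an unadjusted p under 0.05 there were 2, Ta.9641.1.A1_a_at and AFFX-Ta_Sucsyn_3_at, where 9.16% of all probe sets reached it. In the same 2 probe sets the arrays of the genotypes did not overlap, which was so for 39.9% of all probe sets (24.0% with RL4452 above and 15.9% with RL4452 below). In the other 4 probe sets the genotypes overlapped. With 6 probe sets, these counts do not set the group apart from the background.

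For 6-FEH, Ta.9641.1.A1_a_at had intensities of 822 and 694 on the RL4452 arrays and 335 and 309 on the AC Domain arrays. Both RL4452 arrays lay above both AC Domain arrays, and the replicates of each genotype lay close together. The log2 signal was 9.56 ± 0.17 for RL4452, against 8.33 ± 0.08 for AC Domain (SD, n = 2 each), a difference of 1.23 ± 0.18 (standard error), or 2.35-fold. It did not pass over all probe sets (limma, adjusted p = 0.0856), and the 95% interval of the difference, which is for this probe set alone, ran from 0.77 to 1.69. Among all probe sets 0.667% had a higher difference. Within an array the probe set ranked at percentiles 93.0 and 91.6 in RL4452 and at 84.8 and 83.4 in AC Domain. Its difference was 1.30 between the replicate 1 arrays and 1.17 between the replicate 2 arrays.

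TaAffx.93410.1.S1_at lay above the negative control level on all 4 arrays, with a signal that differed between the RL4452 replicates. It had 169 and 67.8 on the RL4452 arrays and 70.3 and 55.5 on the AC Domain arrays. One array, RL4452 replicate 1, was high, and RL4452 replicate 2 lay within the range of AC Domain. The log2 signal was 6.74 ± 0.93 for RL4452, against 5.97 ± 0.24 for AC Domain (SD, n = 2 each), and the difference of 0.78 ± 0.46 (standard error) did not pass (limma, adjusted p = 0.690). It was 1.27 between the replicate 1 arrays and 0.29 between the replicate 2 arrays. Without RL4452 replicate 1 the difference was 0.12, and without RL4452 replicate 2 it was 1.44 (limma, adjusted p = 0.0664).

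Ta.30950.1.A1_x_at, which has the suffix for probes that also match other sequences, differed more between replicates than between genotypes. It had 1213 and 130 on the RL4452 arrays and 277 and 114 on the AC Domain arrays. The replicate 1 array was the higher in each genotype, 9.31-fold in RL4452 and 2.42-fold in AC Domain. A larger excess of RL4452 replicate 1 over RL4452 replicate 2 was found in 33 of the 61140 probe sets in the fit. The log2 signal was 8.64 ± 2.28 for RL4452, against 7.48 ± 0.90 for AC Domain (SD, n = 2 each), and the difference of 1.16 ± 1.11 (standard error) did not pass (limma, adjusted p = 0.805). The interval of this difference ran from -1.70 to 4.02, which leaves its direction undetermined. Without RL4452 replicate 1 the difference was -0.45, and without RL4452 replicate 2 it was 2.77 (limma, adjusted p = 0.728 and 0.0984).

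**Figure D1:**
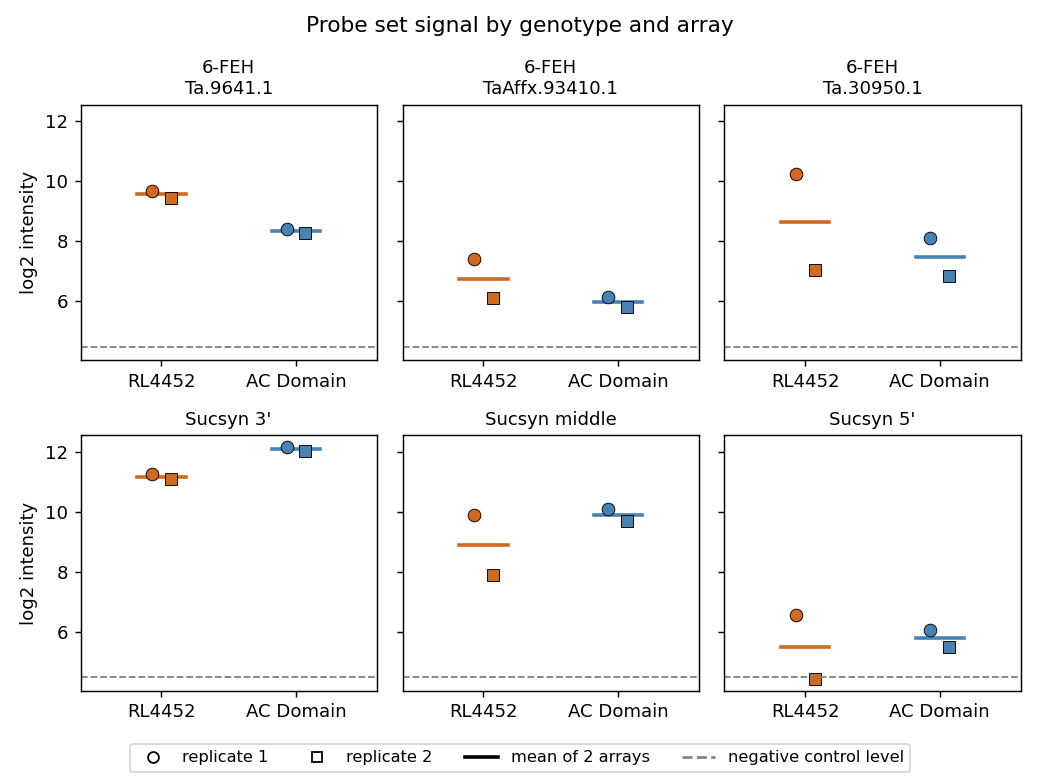
Log2 intensity (y axis) of the 3 probe sets for 6-FEH and the 3 for sucrose synthase (Sucsyn) in RL4452 and AC Domain; circles are replicate 1 arrays, squares replicate 2 arrays, bars the mean of 2 arrays and the dashed line the negative control level of 4.48. The genotypes are separate in Ta.9641.1.A1_a_at and in the 3' probe set of sucrose synthase, and overlap in the other 4.

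The probe sets for 6-FEH had the same sign of difference and differed in their pattern over the arrays. With the log2 values of each centred on their own mean, the root mean square distance over the 4 arrays was 0.45 between Ta.9641.1.A1_a_at and TaAffx.93410.1.S1_at. It was 0.77 between TaAffx.93410.1.S1_at and Ta.30950.1.A1_x_at and 1.13 between Ta.9641.1.A1_a_at and Ta.30950.1.A1_x_at. The median difference of the 3 was 1.16 on the log2 scale, against 0.05 over all probe sets in the fit. It was 0.12 without RL4452 replicate 1, with 2 of 3 probe sets higher in RL4452, and 0.61 without AC Domain replicate 2. Between the replicate 1 arrays this median was 1.30, and between the replicate 2 arrays it was 0.29.

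The 3' probe set of sucrose synthase had a lower signal in RL4452 in each pair of arrays. AFFX-Ta_Sucsyn_3_at had 2460 and 2169 on the RL4452 arrays and 4572 and 4176 on the AC Domain arrays. Both RL4452 arrays lay below both AC Domain arrays. The log2 signal was 11.17 ± 0.13 for RL4452, against 12.09 ± 0.09 for AC Domain (SD, n = 2 each), a difference of -0.92 ± 0.17 (standard error), so that AC Domain was 1.89-fold higher. It did not pass over all probe sets (limma, adjusted p = 0.160), and the interval of the difference, for this probe set alone, ran from -1.36 to -0.48. Among all probe sets 3.01% had a lower difference. Within an array it ranked at percentiles 97.6 and 97.3 in RL4452 and at 99.0 and 98.8 in AC Domain. The difference was -0.89 between the replicate 1 arrays and -0.95 between the replicate 2 arrays.

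The middle and 5' probe sets of sucrose synthase did not separate the genotypes. AFFX-Ta_Sucsyn_M_at had 945 and 238 on the RL4452 arrays and 1101 and 828 on the AC Domain arrays. One array, RL4452 replicate 2, was low, and RL4452 replicate 1 lay within the range of AC Domain. The log2 difference was -1.01 ± 0.66 (standard error; limma, adjusted p = 0.718), with -0.22 between the replicate 1 arrays and -1.80 between the replicate 2 arrays. Without RL4452 replicate 1 the difference was -2.00, and without RL4452 replicate 2 it was -0.015. Each of these fits leaves 1 RL4452 array, whose spread is then taken from the AC Domain pair.

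AFFX-Ta_Sucsyn_5_at had 95.1 and 21.4 on the RL4452 arrays and 66.0 and 45.3 on the AC Domain arrays. The highest and the lowest value both came from RL4452, and the RL4452 replicate 2 array lay below the negative control level of 22.3. The log2 difference was -0.28 ± 0.72 (standard error; limma, adjusted p = 0.943), with 0.53 between the replicate 1 arrays and -1.08 between the replicate 2 arrays. Without RL4452 replicate 1 it was -1.35, and without RL4452 replicate 2 it was 0.80 (limma, adjusted p = 0.114 and 0.272). This was the only one of the 6 probe sets whose difference had opposite signs in the 2 pairs of arrays with the same replicate number.

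**Figure D2:**
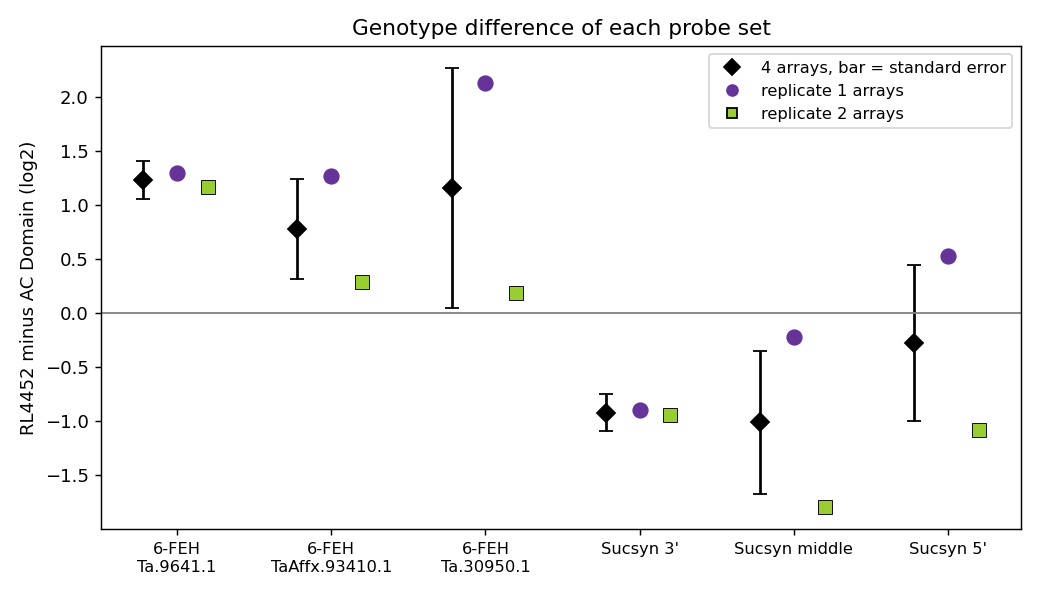
RL4452 minus AC Domain on the log2 scale (y axis) for each probe set; diamonds are the fit over 4 arrays with its standard error, circles the difference between the replicate 1 arrays and squares that between the replicate 2 arrays. Ta.9641.1.A1_a_at (1.30 and 1.17) and the 3' probe set of sucrose synthase (-0.89 and -0.95) have nearly the same difference in each pair of arrays, and the other 4 do not.

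The replicate 1 array was above the replicate 2 array in 6 of 6 probe sets in RL4452 and in 6 of 6 in AC Domain. Over all probe sets in the fit the replicate 1 array was the higher in 42.7% in RL4452 and in 52.5% in AC Domain, and in both genotypes at once in 27.9%. Several of the 6 probe sets read the same gene, so that they are not independent observations. For sucrose synthase the RL4452 replicate 1 array was 1.13-fold above replicate 2 at the 3' end and 3.96-fold in the middle. At the 5' end RL4452 replicate 2 was below the negative control level, and RL4452 replicate 1 was 4.27-fold above that level. The ratio of replicate 1 to replicate 2 was there at least 4.27. The ratios of replicate 1 to replicate 2 in AC Domain were 1.09 at the 3' end, 1.33 in the middle and 1.46 at the 5' end.

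The 3' and 5' ends were set against each other within each array, since labelling from the poly(A) tail starts at the 3' end. Probes differ in brightness, so that only the change of this difference between arrays can be read. For sucrose synthase, 3' minus 5' was 4.69 and 6.66 on the RL4452 arrays and 6.11 and 6.53 on the AC Domain arrays (log2). The RL4452 arrays were the lowest and the highest of the 4. The 6.66 of RL4452 replicate 2 rests on a 5' signal below the negative control level. The mean was 5.68 ± 1.39 for RL4452, against 6.32 ± 0.29 for AC Domain (SD, n = 2 each), a difference of -0.64, which was 0.34 without RL4452 replicate 1 and -1.63 without RL4452 replicate 2. With 2 arrays per genotype the smallest p of an exact permutation test, two-sided, is 0.333, and so none is given.

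The other 6 control genes with a 3' and a 5' probe set were actin, EF1A, GAPDH, CYP86, G-6-PDH and ubiquitin. Counting sucrose synthase, 3' minus 5' was lowest on RL4452 replicate 1 in 6 of 7 genes and highest on RL4452 replicate 2 in 7 of 7. In G-6-PDH, glucose-6-phosphate dehydrogenase, it was 1.52 and 3.60 in RL4452 against 2.19 and 2.19 in AC Domain. The genotype difference in 3' minus 5' lay between -0.14 and 0.37 in these 6 genes. The probe sets for the 3' end of GAPDH and the 5' end of EF1A had means of 3.86 and 4.07, below the negative control level. The part of this end-to-end difference, of the wash record and of the project in the results for 6-FEH and sucrose synthase was not tested.

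**Figure D3:**
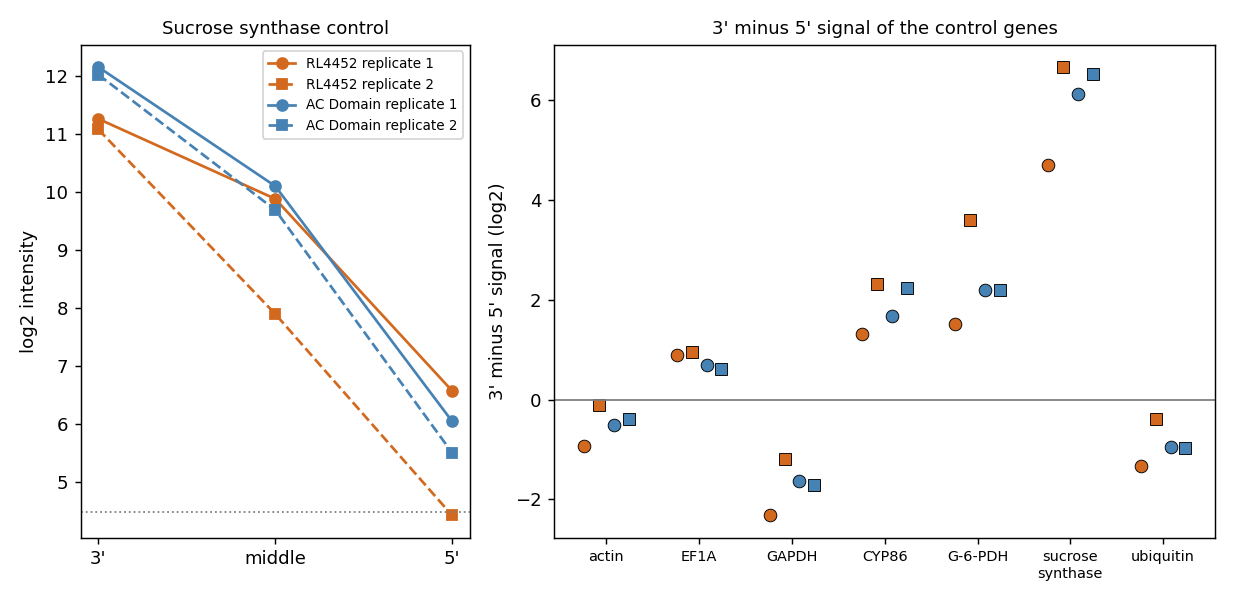
Left, log2 intensity of the sucrose synthase probe sets at the 3' end, in the middle and at the 5' end on each array, with the negative control level of 4.48 as a dotted line; right, 3' minus 5' signal (log2) of 7 control genes on each array, in the same colours and symbols. RL4452 replicate 2 has the highest 3' minus 5' value in 7 of 7 genes, and RL4452 replicate 1 the lowest in 6 of 7.

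Middle minus 5' signal of sucrose synthase was 3.31 and 3.48 on the RL4452 arrays and 4.06 and 4.19 on the AC Domain arrays. The genotypes did not overlap, and the means were 3.39 ± 0.12 for RL4452, against 4.13 ± 0.09 for AC Domain (SD, n = 2 each), a difference of -0.73 on the log2 scale. In the 4 other control genes with both probe set means above the negative control level, this difference lay between -0.11 and 0.23. The EF1A 5' probe set and the GAPDH middle probe set were below that level. For sucrose synthase, 1 of the 4 array values, the 3.48 of RL4452 replicate 2, rests on a 5' signal below it. The true value there could be higher, so the lack of overlap and the SD of RL4452 are uncertain.

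The other wheat controls gave a range of differences on the same arrays, and how broadly these genes are expressed was not analysed. Of 18 probe sets for the 6 other control genes, 0 passed in limma and 12 had a higher mean in RL4452. Means were 3.86 and 3.40 at the 3' end and middle of GAPDH and 4.07 at the 5' end of EF1A, which is background. The 3' probe sets of actin (4.86) and EF1A (4.85) lay just above the negative control level of 4.48. Signals near that level limit what can be read from the ranges that follow. The differences of the 18 ran from -0.54 to 0.39, and those of the 3' probe sets from -0.17 to 0.26. The sucrose synthase 3' and middle probe sets, with -0.92 and -1.01, lay outside that range, and the 5' probe set, with -0.28, lay inside it. The value of the middle probe set was -0.015 without RL4452 replicate 2. The 18S rRNA control had 191 and 432 on the RL4452 arrays and 2586 and 1914 on the AC Domain arrays, a difference of -2.95 (log2; limma, adjusted p = 0.0856). RNA was enriched for poly(A), and whether this control bears on sucrose synthase was not tested.

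**Figure D4:**
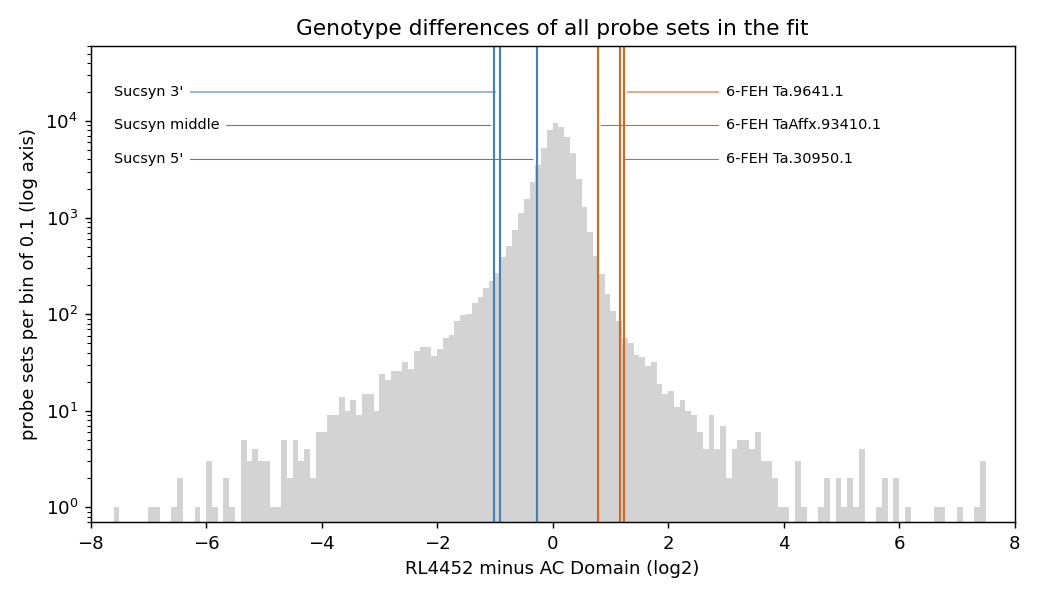
Number of probe sets (y axis, log scale) by RL4452 minus AC Domain difference (x axis, log2) for the 61140 probe sets in the fit, with the differences of the 3 probe sets for 6-FEH and the 3 for sucrose synthase as vertical lines. The lines for 6-FEH lie between 0.78 and 1.23 and those for sucrose synthase between -1.01 and -0.28.

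Other genes of fructan, sucrose and starch metabolism were found by a list of symbols. Of 9 roles listed, 3 had a probe set: fructan exohydrolases, an invertase symbol, and starch synthesis and breakdown. No probe set was found by symbol for fructosyltransferases, sucrose synthase, sucrose phosphate synthase, hexokinases and fructokinases, sugar transporters or UDP-glucose pyrophosphorylase. By this search, sucrose synthase was found in its 3 control probe sets alone. Of the 771 annotated genes 102 had a descriptive symbol or synonym. A gene of these roles without a listed name would have been missed. Apart from 6-FEH the list held 7 probe sets of 6 genes, of which 5 were above the negative control level. In limma 1 of the 7 passed higher in RL4452 and 0 passed lower, where 0.224% and 0.576% of all probe sets passed. The median difference of the 7 was 0.17 against 0.05 over all probe sets, and 6 of 7 were higher in RL4452 as deposited, 4 of 7 after median centring or quantile normalisation.

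The RefSeq table named 4 fructan exohydrolase genes, 6-FEH and 3 for 1-FEH, of which 1-FEHw2 (LOC543441) had a probe set here. This probe set had intensities of 392 and 308 on the RL4452 arrays and 297 and 297 on the AC Domain arrays. Both RL4452 arrays lay above both AC Domain arrays by a small margin, and the difference of 0.22 ± 0.19 (log2, standard error) did not pass (limma, adjusted p = 0.780). LOC543415 has the invertase synonym IVR1 and also atpA, a name used for an ATP synthase subunit, so that its identity is uncertain. It was below the negative control level on every array.

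In the starch branch, which draws on the products of sucrose cleavage, GBSS-I, the waxy gene for amylose synthesis, had a higher signal in RL4452. Its intensities were 1672 and 1406 on the RL4452 arrays and 356 and 243 on the AC Domain arrays, a difference of 2.38 ± 0.25 (log2, standard error; limma, adjusted p = 0.0344). It was not called with an offset of 16 added to the intensities or without either AC Domain array. AGP-S, a subunit of ADP-glucose pyrophosphorylase, had 1626 and 1326 in RL4452, against 1659 and 1750 in AC Domain. BMY1, a beta-amylase, had 7524 and 5127 in RL4452, against 6141 and 4973 in AC Domain. The brighter probe set of AGA.1, another subunit of ADP-glucose pyrophosphorylase, had 367 and 280 in RL4452, against 207 and 297 in AC Domain. These 3 did not pass, with differences of -0.21, 0.17 and 0.37 (limma, adjusted p = 0.780, 0.888 and 0.731).

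Markers of seed parts were summed beside these results. The 16 probe sets found for endosperm, 7 of them above the negative control level, summed to intensities of 4858 and 4236 on the RL4452 arrays and 2671 and 2691 on the AC Domain arrays. GBSS-I and GLU1A, a beta-glucosidase gene that the symbol search for glutenins also found, were the 2 of them that passed. Without these 2 the sums were 2264 and 1896 on the RL4452 arrays and 2099 and 2278 on the AC Domain arrays. The genotypes then overlapped. The 2 were left out because they passed the genotype test in the same data, which by itself lowers the difference. This overlap therefore cannot tell whether the amount of endosperm differed. Most of each remaining sum came from AGP-S, whose intensities are given above. The median difference of the 16 was 0.17 on the log2 scale, and of the 14 it was 0.15. RAFTIN genes of the anther summed to 82.6 and 88.7 in RL4452, against 87.7 and 74.9 in AC Domain, with 1 of 4 probe sets above the negative control level. Genes of the maturing embryo summed to 219 and 301 in RL4452, against 229 and 211 in AC Domain, with 3 of 10 above that level. The rbcl probe sets of green tissue summed to 49267 and 48515 in RL4452, against 52631 and 50839 in AC Domain, with 8 of 28 above it. The part of these tissues in the results for 6-FEH and sucrose synthase was not tested.

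The genes most alike in pattern were sought among 135 probe sets, of 81 genes with a descriptive symbol, above the negative control level. Likeness was the root mean square distance over the 4 arrays between centred log2 values. For the mean pattern of 6-FEH the nearest were GA20ox1d, a gibberellin 20-oxidase (0.36), PEAMT1, a phosphoethanolamine methyltransferase (0.42), and XTH, a xyloglucan endotransglucosylase/hydrolase of the cell wall (0.46). Their genotype differences were 0.98, 0.38 and 0.23 (limma, adjusted p = 0.393, 0.801 and 0.909). Ta.30950.1.A1_x_at weighs most in this mean pattern, with a log2 gap of 3.22 between the RL4452 replicates. That gap was 0.24 in Ta.9641.1.A1_a_at, and likeness to this probe set alone was not analysed. GA20ox1d had 95.7 and 64.3 in RL4452, against 47.3 and 33.3 in AC Domain, so that RL4452 replicate 1 was its highest array, as in each probe set of 6-FEH. Over all probe sets 0.790% were closer to that pattern than GA20ox1d. For the mean pattern of sucrose synthase the nearest were LTP3 of lipid transfer (0.22), a profilin gene, LOC543315 (0.29), and the thionin THI1.1 (0.31). LTP3 had 14690 and 5536 in RL4452, against 13090 and 9370 in AC Domain, with RL4452 replicate 2 lowest, as in each probe set of sucrose synthase. These patterns rest on 4 arrays and are given as a description.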

How the data were processed

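Messenger RNA of developing wheat seed was measured on 4 Affymetrix arrays, 2 per genotype. The deposited values are RMA probe set intensities on a linear scale (4.74 to 25900), per the submitters' processing notes, which name no version. RMA corrects background, normalises arrays to one distribution and summarises probes; the set of arrays normalised jointly is not given in the sources used. The run files hold other values, per the file headers, and were read for the project and wash record alone.

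The intensities were log2-transformed. The 61115 wheat probe sets and 25 controls for wheat RNA were fitted with limma 3.58.1 in R 4.3.3 (lmFit, eBayes; two-sided; Benjamini-Hochberg over all 61140), with 2 residual and 2.97 prior degrees of freedom, and precision is limited by having 2 arrays per genotype. The call threshold was an adjusted p of 0.05. On simulated data of this size, limma called 0 of 65 probe sets shifted by 1 on the log2 scale, 5 of 63 shifted by 2 and 65 of 72 shifted by 4, and 3 unshifted ones. The simulated errors were independent, with the same spread in both genotypes, so these counts are a limited guide to the real arrays. The real log2 differences between replicates had an SD of 0.528 in RL4452 and 0.327 in AC Domain. Replicate numbers match the projects in the run files, and same-numbered arrays deviated together (r = 0.398; probe sets are not independent replicates).

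Names came from the platform annotation (1273 probe sets, 771 genes), updated through gene identifiers to RefSeq genes of IWGSC CS RefSeq v2.1 (770 found); no coordinates were used. The rule named all 6 probe sets, the pathway genes with the smallest p (up to 6) and the 3 most alike genes per pattern. The members and lists were chosen with earlier results of these data known. Alternatives were median centring, quantile normalisation, a filter on dim probe sets, an intensity trend, a replicate block, all controls left out, an offset of 16 and leaving out each array. No sequences are given.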

Additional observations from a re-analysis of the deposited data

How the results depend on the processing

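The 6 probe sets kept their direction and stayed short of the threshold in all 39 results under median centring, quantile normalisation, the filter on dim probe sets, the intensity trend, the replicate block, all controls left out (6-FEH alone) and an offset of 16. Leaving out 1 array kept both in 21 of 24 results, reversed the direction in 2 and changed the call in 1. The changed call was that of AFFX-Ta_Sucsyn_M_at without RL4452 replicate 1. That fit takes the spread of the lone RL4452 array from the AC Domain pair, so its call is not read as a result. The difference ran from -0.45 to 2.77 for Ta.30950.1.A1_x_at, from -2.00 to -0.015 for AFFX-Ta_Sucsyn_M_at and from -1.35 to 0.80 for AFFX-Ta_Sucsyn_5_at, and 3' minus 5' of sucrose synthase from -1.63 to 0.34; the lone array of a genotype was then assumed to vary like the other pair. The range was 1.11 to 1.35 for Ta.9641.1.A1_a_at (adjusted p from 0.0512 to 0.823) and -1.01 to -0.83 for AFFX-Ta_Sucsyn_3_at (adjusted p from 0.0983 to 0.969). Over all probe sets limma called 489, with the replicate block 664, with an offset of 16 143, and with 1 array left out from 0 to 1039; it called 1039 and 1014 without RL4452 replicate 1 or 2, and 0 without either AC Domain array (3000 and 2442 at an unadjusted p under 0.05). Of the 7 other pathway probe sets, 1 was called, 0 with the offset of 16 and 0 to 1 with 1 array left out. The replicate block changed no call among the 6 probe sets. The cause of these changes was not tested. Signals near the negative control level, such as the 5' end of sucrose synthase, limit what can be read from them.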
